A study of Sus scrofa with 22 samples.

Results

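Oxidative phosphorylation genes encoded in the nucleus were followed through early pig development and into pig pre-gastrulation epiblast stem cell lines (pgEpiSCs). The members were all rows of the authors' table of group means whose names begin with NDUFA, NDUFB, NDUFC, NDUFS, NDUFV, UQCR, COX4, COX5, COX6, COX7, COX8 or ATP5, or are SDHA, SDHB, SDHC or SDHD, and no measured value entered that choice. The rule took 73 of the 25749 rows: 30 structural subunits of complex I and 8 of its assembly factors (NDUFAF names), 3 genes of complex II, 5 of complex III, 14 of complex IV and 13 of complex V, the ATP synthase. COX7A2L, a supercomplex assembly factor, and NDUFA4L2 were counted with complex IV. SDHA, COX6B1, ATP5F1B, UQCRB and COX6C were not analysed here. All 73 names were paired with Ensembl gene identifiers, for example COX4I1 with ENSSSCG00000029034 and COX6B2 with ENSSSCG00000035612. RefSeq's annotation of Sscrofa11.1, the build the submitters' processing notes name, gave a position for 48 of them, on 16 chromosomes with at most 8 on any one. Of these, 10 overlap another gene, among them NDUFS4, NDUFB4 and NDUFAF7, so their reads may not be separable from those of the neighbour. NDUFS1 lies at chr15:109413726-109451813, NDUFV1 at chr2:4958508-4964211, SDHB at chr6:75648362-75678111, NDUFAF4 at chr1:64038277-64044824 and COX7A2 at chr1:90696746-90703407.

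The study profiled single cells with a modified Smart-seq2 protocol that puts a cell barcode into the lysis buffer, from pgEpiSC lines labelled as derived from E10 embryonic epiblast and from pig embryos of day 0 to 14 (E0 to E14). Of the 22 libraries, 2 hold stem cells (pgEpiSC_high with 96 cells and pgEpiSC_low with 93 cells; the labels do not say what high and low refer to) and 20 hold embryo cells. The authors' mean table has 39 columns: pgEpiSC_high and pgEpiSC_low, then Oocyte, Zygote, 2C, 4C and 8C (cleavage stages), Morula_E4, the trophectoderm (preTE_E5 and TE of day 6 to 14), the hypoblast of day 7 to 10, endoderm, mesoderm (spelled Mesdoderm in the table) and ectoderm of day 11 to 14, and the inner cell mass (preICM_E5, ICM_E6) with the epiblast of day 7 to 10. No genetic change or drug treatment is given for any group, and the labels name no embryo, so the cells of a group in one library may come from one embryo or several, and the p-values below measure only the spread between library sums.

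Oxidative phosphorylation passes electrons from NADH through complex I, or from succinate through complex II, to ubiquinone, then through complex III and cytochrome c to complex IV, which reduces oxygen. Complexes I, III and IV pump protons across the inner mitochondrial membrane, and complex V uses the gradient to make ATP. Complexes I, III, IV and V combine nuclear and mitochondrial gene products, whereas complex II is wholly nuclear. In mammalian embryos the oocyte supplies the mitochondria and the first transcripts, and maternal RNA is replaced as the embryonic genome is switched on during cleavage. In the pig that switch is known to lie around the 4-cell stage.

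The files hold 1647 cells with a median of 281109 counts per cell, and 7585550 to 40096397 counts per library. The 96 cell barcodes all recur in more than 1 library, so a cell was identified by library and barcode together. Which cells the authors put into each group was recovered from the deposited means, and counts were then summed over the cells of one group in one library. Marker lists were mostly highest in the groups they name, but they are not exclusive: the 5 epiblast markers (POU5F1, NANOG, SOX2, GDF3 and DPPA2) added up to 793 to 1493 counts scaled to a library total of 1000000 (CPM) in epiblast sums, the 6 hypoblast markers to 502 to 1312 CPM in hypoblast sums, and the 5 measured oocyte markers to 1088 to 2905 CPM in sums from Oocyte to 8C. The epiblast list also gave 774 to 804 CPM in Morula_E4 sums and up to 1097 CPM in inner cell mass and 844 CPM in ectoderm sums, and the hypoblast list up to 693 CPM in inner cell mass and 695.5 CPM in endoderm sums. In a summed count, fewer cells with a transcript and less transcript per cell cannot be told apart.

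Over the 39 groups, the oxidative phosphorylation genes were low through cleavage, came up together at the morula and then varied less than at that step. Each gene's deposited mean, on the scale log2(CPM/10 + 1), was set against that gene's own average over the 39 columns. The median deviation of the 73 genes was -2.35 in 2C cells and -2.51 in 8C cells, and it reached 0.75 in TE_E6 and 0.79 in preICM_E5. Over all rows averaging at least 1, the median was 0.15 in 2C, -0.39 in 8C, -0.19 in TE_E6 and 0.10 in preICM_E5. The lowest column was one of Oocyte, Zygote, 2C, 4C and 8C for 65 of the 73 genes, with 8C lowest for 37 and 2C for 19. These counts were not made over all rows. The column of TE_E9, which rests on 2 cells, was the lowest for 7 others. By these deposited means 71 of the 73 genes averaged at least 1 over the columns, as did 7711 of all 25749 rows.

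The complexes followed this course to different depths, a comparison of medians that was not tested. No value lies below 0 on this scale, so a gene with a low average has little room to fall. COX4I2 averaged 0.20, NDUFA4L2 0.55 and COX6B2 1.0, all counted with complex IV. In 8C cells the median deviation was -3.47 for complex III, -2.78 for complex V, -2.74 for complex I, -1.82 for complex II, -1.58 for the complex I assembly factors and -0.97 for complex IV. In the Oocyte column, which rests on 4 cells of 1 library, the median was -1.76 for complex I and -2.04 for complex III. For complex II it was -0.03, but its 3 genes spanned -1.86 to 0.01. The assembly factors lay at -0.34 there. Across the 39 columns, 55 genes had a Pearson correlation of at least 0.8 with the median of the other members, and the median correlation was 0.91. These columns share libraries and stages, so the correlation is a description. The 10 genes under 0.5 were COX7A2L (-0.23), NDUFAF7 (-0.11), NDUFAF4 (-0.05), NDUFA4L2 (0.09), COX4I2 (0.10), COX6B2 (0.12), NDUFA1 (0.34), NDUFAF1 (0.35), SDHB (0.38) and NDUFAF2 (0.497). Assembly factors make up 4 of these 10, and 4 are counted with complex IV.

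**Figure D1:**
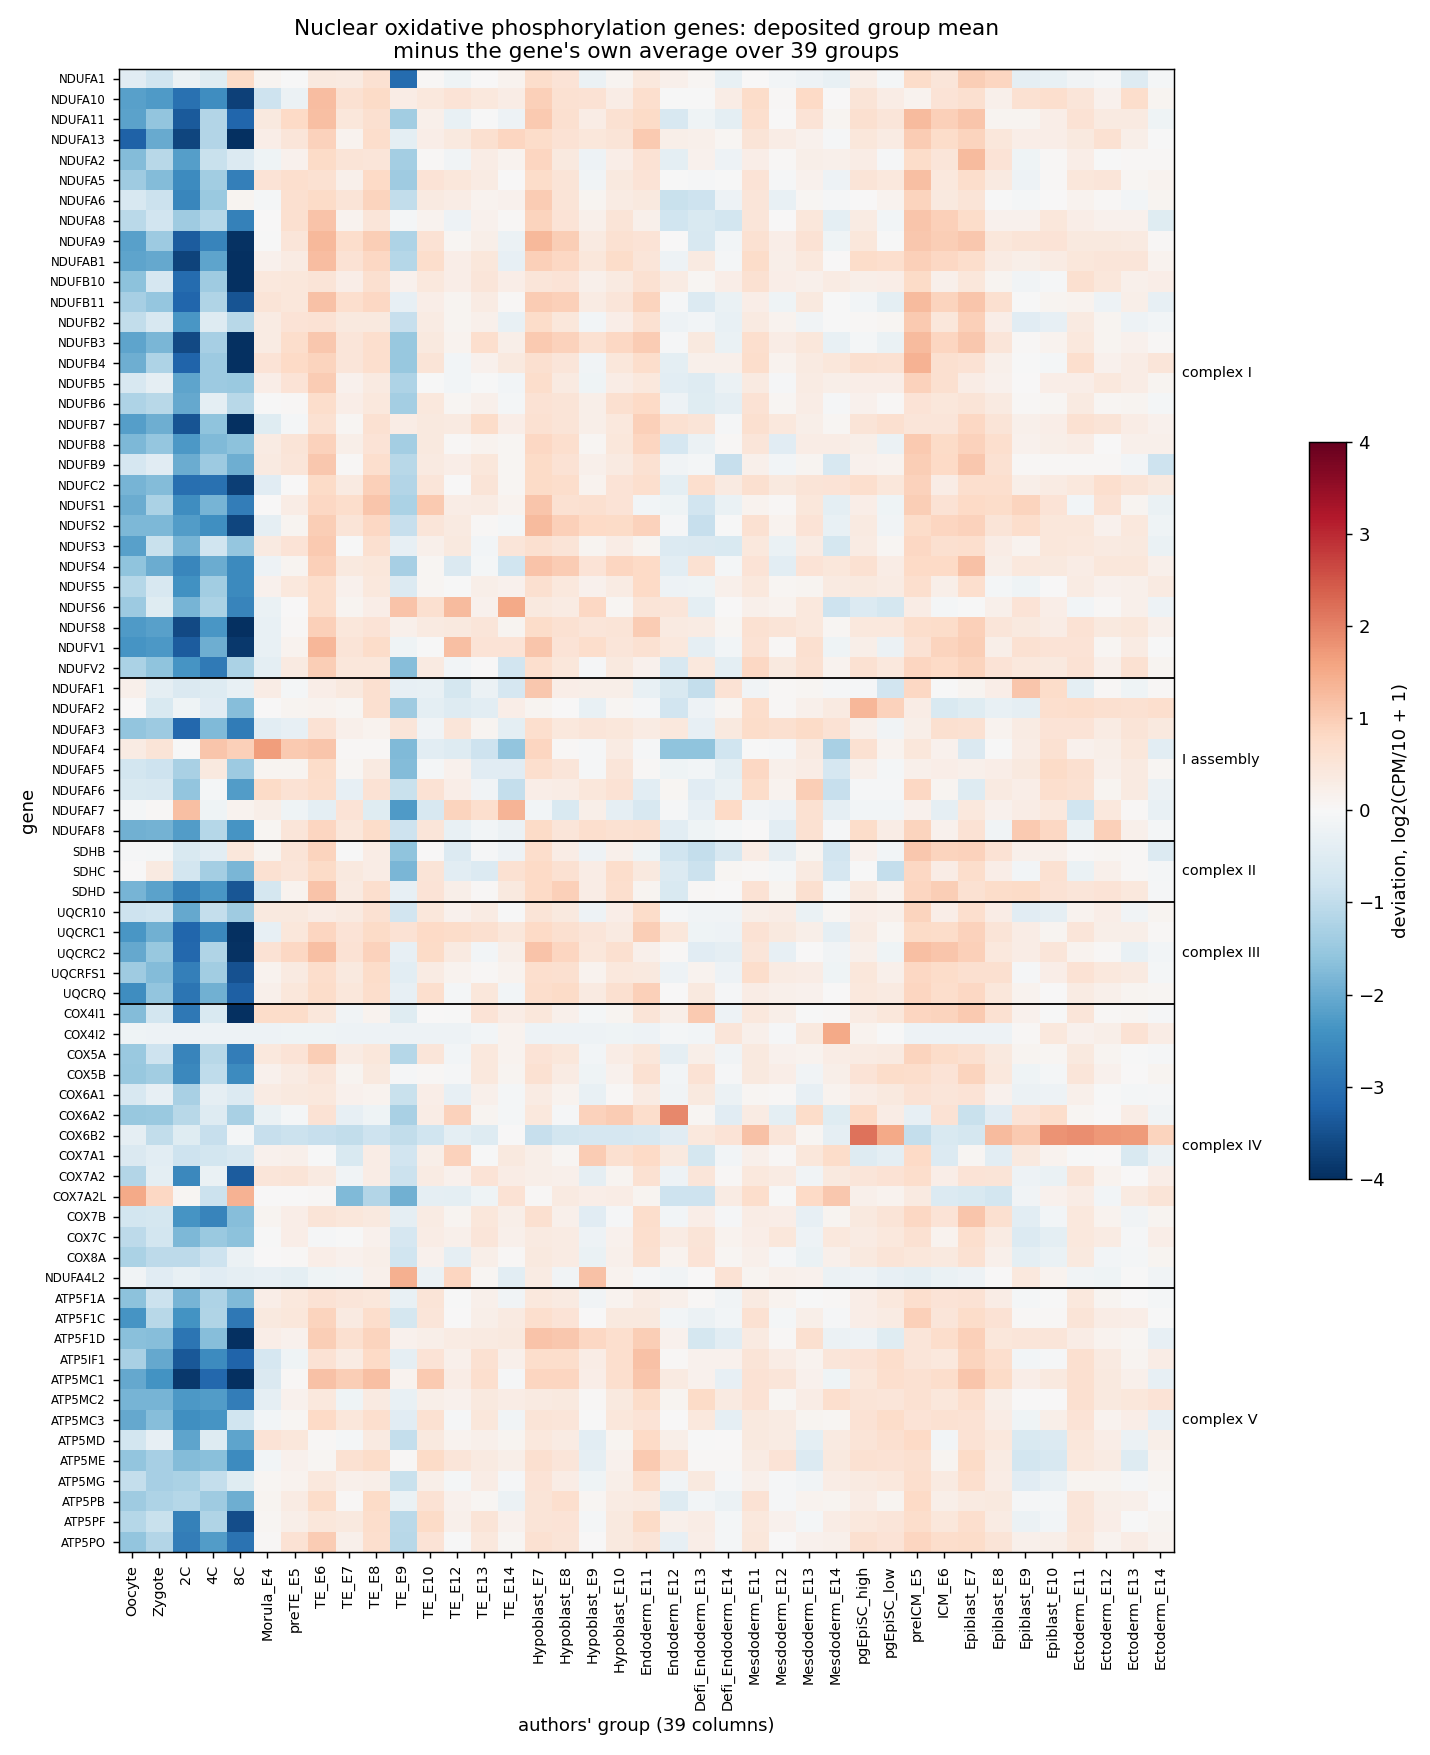
Deposited group mean minus the gene's own average over 39 groups, on the log2(CPM/10 + 1) scale, with genes in rows by complex and the authors' groups in columns. Blue fills most rows from Oocyte to 8C, with 65 of the 73 genes lowest in one of those 5 columns, a count not made over all rows. The rows of COX6B2, COX7A2L, COX4I2 and NDUFA4L2 follow other courses.

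At the first tested step, 28 members were higher in cells labelled 4C than in 2C cells, and these calls rest on one library. In 4C against 2C, 28 of the 73 genes passed as higher and 0 as lower at an adjusted p of 0.05 (edgeR quasi-likelihood test, 2 sums a group), where 4.43% of all genes tested were higher and 0.0824% lower. This and the other stage steps came from one fit of 65 embryonic sums. That fit shared its spread over all stages and lineages and treated sums of one library as independent. The median log2 fold change was 0.93 for the members and 0 for all genes. COX4I1, the common isoform of a regulatory complex IV subunit, had 406 CPM in the 4C sum of library P1 and 86.6 CPM in that of P13, against 59.2 and 51.5 CPM in the 2C sums of the same libraries. NDUFAF6, a complex I assembly factor, had 58.4 and 1.22 CPM in these 4C sums, against 5.02 and 4.44 CPM in the 2C sums. The 4C sums of P1 and P13 rest on 17 and 6 cells, the 2C sums on 8 and 2. The 4C sum of P1 was far above the others for both genes. It was at least 2-fold above the 4C sum of P13 for 41 members and at least 2-fold below it for 4. These counts were not made over all genes. Without P1, which leaves 1 sum a group, 0 of the 73 genes passed the edgeR test, and so did 0 of all genes, against 1041 with it. The members' median was then 0.42, with 0 for all genes, and NDUFAF6 turned to -1.85. With the library as a block, in a fit of the 2C and 4C sums only, 0 members passed as well, and 21 of all genes. That fit has far fewer sums than the main one, so an effect of the block cannot be told from a loss of power. The members' median in it was 1.04 and COX4I1 had a log2 fold change of 1.89.

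From 4C to 8C the members split, and the same library decides the lower side. In 8C against 4C, 11 genes were higher and 22 lower (2 sums a group), where 4.08% of all genes were higher and 7.16% lower. Without P1, 13 were higher and 1 lower, and without P20, 5 were higher and 10 lower. Of all genes edgeR called 795 without P1 and 859 without P20, against 2591 with all libraries. The gene still lower without P1 was UQCRC1, a core subunit of complex III. UQCRC1 had 21.8 and 6.06 CPM in 8C sums, against 41.7 and 37.0 CPM in 4C sums, with a log2 fold change of -1.51 ± 0.36 (SE), but its call was lost without P20, at -0.85. UQCRC2, its partner in the same complex, had 6.999 and 2.54 CPM in 8C sums, against 79.55 CPM in the 4C sum of P1 and 12.85 CPM in that of P13. For both genes the 8C sums lie below both 4C sums.

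The genes that were higher in 8C cells included single subunits of several complexes. SDHB, the iron-sulfur subunit of succinate dehydrogenase, had 306 and 562 CPM in 8C sums, against 202 and 137 CPM in 4C sums (log2 fold change 1.35 ± 0.35, adjusted p = 0.0068 by edgeR). NDUFV2, an iron-sulfur core subunit of complex I, had 111.5 and 135.5 CPM in 8C sums, against 18.2 and 46.8 CPM in 4C sums. NDUFA6, an accessory subunit of the same complex, changed by 1.995 ± 0.38 and ATP5MC3, one of 3 genes for the c subunit of the ATP synthase rotor, by 1.75 ± 0.31. COX7A2L, known in mammals for joining complexes III and IV, had 301 and 492 CPM in 8C sums, against 46.5 and 126 CPM in 4C sums, and these groups do not overlap. COX6B2, the testis isoform of a complex IV subunit in other mammals, was read 199 and 281 times in 8C sums, against 10 times and 1 time in 4C sums. The edgeR call of COX6B2 was lost without P1 or without P13, at log2 fold changes of 5.36 and 3.74, and that of COX7A2L without P1, at 1.59. Among the 13 protein genes of the mitochondrial genome, 9 were also higher in 8C cells and 0 lower, COX2 by 1.55 ± 0.35, so both nuclear and mitochondrial transcripts of complex IV are on that list.

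Between 8C and the morula most of the set rose. In Morula_E4 against 8C, 54 of the 73 genes were higher and 2 lower (edgeR, 2 sums a group), where 16.4% of all genes were higher and 13.6% lower. The median log2 fold change was 2.27 for the members and 0 for all genes. Both morula sums lay above both 8C sums for 62 members, a count that was not made over all genes. Leaving out any one of the 4 libraries left the members' median log2 fold change between 1.89 and 2.42, with -0.79 to 0 for all genes.

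Most core and accessory subunits of complexes I and III rose. Of 6 core subunits of complex I, 5 rose, and so did 20 of 24 accessory subunits and 5 of 8 assembly factors. NDUFV1, which carries the NADH-binding site, had 132 and 182 CPM in morula sums, against 5.06 and 1.07 CPM in 8C sums (log2 fold change 5.71 ± 0.53, adjusted p = 3.03e-11 by edgeR). NDUFS1, the largest iron-sulfur subunit, had 74.2 and 109 CPM in morula sums, against 8.34 and 8.38 CPM in 8C sums. Complex III rose in 5 of 5 genes. UQCRC2 had 227 and 264 CPM in morula sums, against 6.999 and 2.54 CPM in 8C sums (5.70 ± 0.595), and UQCRFS1, the Rieske iron-sulfur protein, changed by 3.38 ± 0.36. In each of these genes the 2 groups are far apart.

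Complex V rose in 11 of 13 genes, among them all 3 measured subunits of its catalytic F1 part. ATP5F1A, the alpha subunit, had 604 and 729 CPM in morula sums, against 188 and 261 CPM in 8C sums (log2 fold change 1.57 ± 0.29). ATP5F1D, the delta subunit of the central stalk, changed by 5.13 ± 0.47 and ATP5MC1, another c subunit gene, by 3.32 ± 0.35. Complex II was divided: its membrane anchors SDHC (2.05 ± 0.41) and SDHD (2.905 ± 0.41) rose. SDHB had 299 and 365 CPM in morula sums, against 306 and 562 CPM in 8C sums, which overlap, at -0.39 ± 0.35.

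Of the complex IV genes, some rose and some did not at the same step. The 4 accessory subunits rose in 4 of 4 cases and the 4 common isoforms in 2, while 0 of 5 tissue isoforms were higher and 1 was lower (1 of the 5 was higher and 1 lower at an unadjusted p under 0.05, and 0 and 1 by DESeq2). The difference between these classes was not tested. Of the other 4 tissue isoforms, COX4I2 had 0 CPM in both morula sums, against at most 0.149 CPM in 8C sums, and NDUFA4L2 had 1.30 and 2.59 CPM, against 2.46 and 2.50 CPM. COX6A2 had 34.0 and 40.2 CPM in morula sums, against 13.7 and 20.55 CPM in 8C sums, without overlap (1.11 ± 0.47, adjusted p = 0.0669 by edgeR). COX7A1 had 126 and 171 CPM in morula sums, against 96.9 and 106 CPM in 8C sums, also without overlap (0.54 ± 0.39, adjusted p = 0.297 by edgeR). COX4I1 had 781 and 934 CPM in morula sums, against 60.4 and 35.8 CPM in 8C sums (4.16 ± 0.41, adjusted p = 7.84e-11 by edgeR). COX5A, counted here with the accessory subunits, had 557 and 719 CPM in morula sums, against 109 and 108 CPM in 8C sums. Both genes that fell were counted with complex IV. COX6B2 was read 5 times and 1 time in morula sums, against 199 and 281 times in 8C sums (-4.31 ± 1.16), and COX7A2L had 153 and 151 CPM in morula sums, against 301 and 492 CPM in 8C sums (-1.39 ± 0.48). COX7A2L missed the threshold without P2 or without P20, at -1.38 and -0.99.

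Other mitochondrial gene lists shared the step only in part. Higher in Morula_E4 than in 8C were 10 of 14 complex IV assembly genes, 10 of 14 assembly genes of other complexes, 10 of 15 genes of the tricarboxylic acid cycle (1 was lower), 6 of 13 mitochondrial transcription factors and regulators and 5 of 13 glycolysis genes (1 was lower). Among the mitochondrial genome's own 13 genes, edgeR called 0 in either direction, with a median log2 fold change of -0.19. By the deposited means, the median rise was 3.66 for complex III, 2.85 for complex V, 2.81 for complex I, 1.92 for complex II, 1.77 for assembly factors and 1.04 for complex IV. The complex IV value was 1.599 when its genes averaging under 1 were left out. By edgeR the order differed in part, with a median of 2.37 for assembly factors and 2.12 for complex V. Oocyte markers added up to 806 and 46.6 CPM in morula sums, against 1642 and 1794 CPM in 8C sums, so they fell at the same step, and their part in these changes was not tested.

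**Figure D2:**
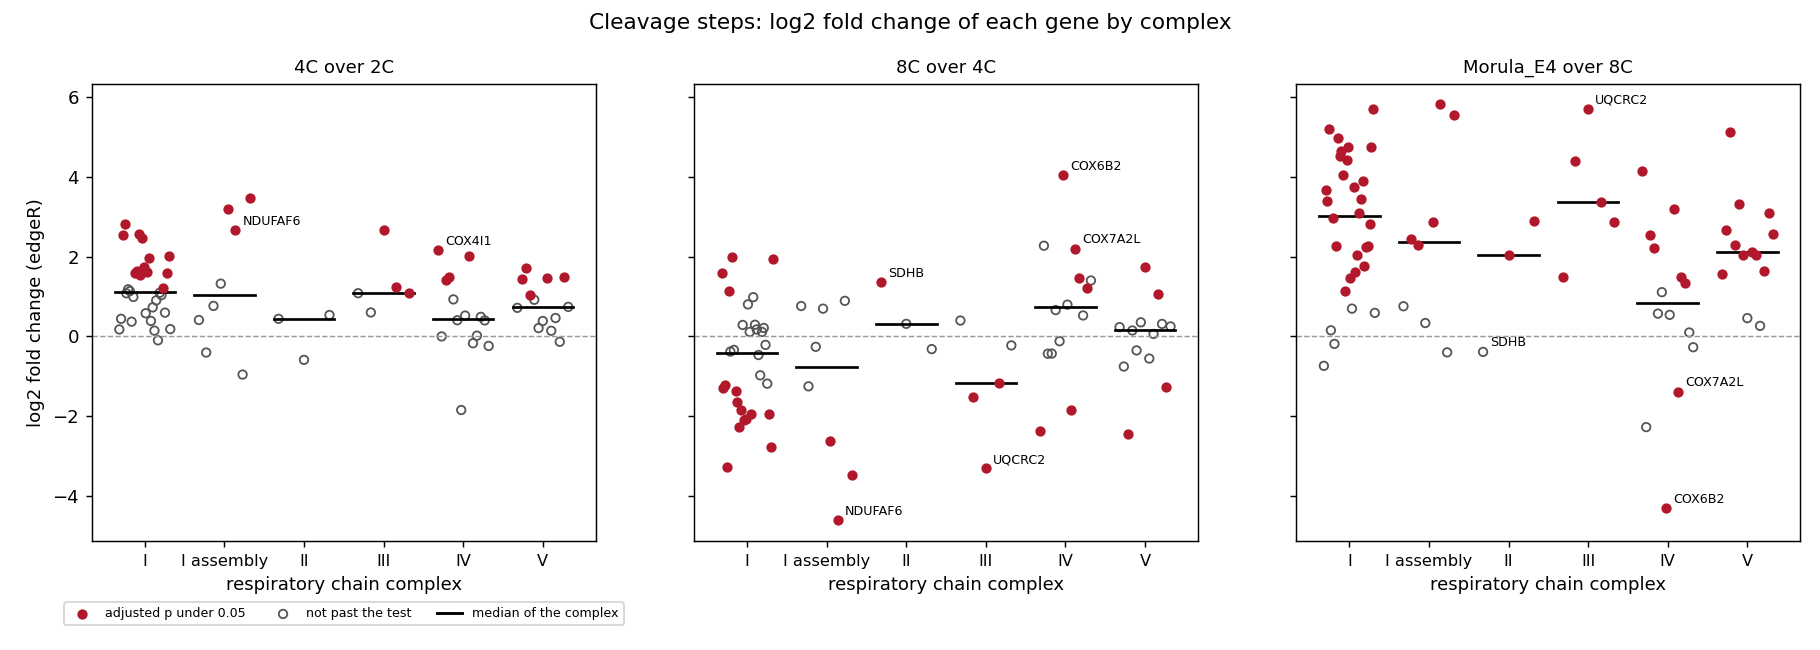
Log2 fold change from edgeR of each gene, by complex, for 4C over 2C, 8C over 4C and Morula_E4 over 8C. Filled points passed an adjusted p of 0.05 and bars mark the median of a complex; in the right panel 54 genes lie above 0 and pass, and the 2 that pass below 0 are COX6B2 and COX7A2L.

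After the morula, few members passed the test between neighbouring stages, though at several steps most estimates shared a direction. In preTE_E5 against Morula_E4, 0 of 73 genes passed edgeR in either direction, 12 had an unadjusted p under 0.05 and DESeq2 called 1, where edgeR called 0.0434% of all genes higher and 0.00868% lower. Of all 23045 genes tested, 1722 had an unadjusted p under 0.05 and DESeq2 called 146. The estimates were positive for 72 of 73 members, with a median of 0.48 against 0 for all genes. NDUFS1 had 139.6, 139.7 and 187 CPM in preTE_E5 sums, against 74.2 and 109 CPM in morula sums, without overlap. In Epiblast_E7 against ICM_E6, 1 gene was lower and 0 higher, where 0.712% of all genes were lower and 1.12% higher. That gene was COX6A2, the heart and skeletal muscle isoform of a complex IV subunit, with 40.85 and 36.0 CPM in Epiblast_E7 sums, against 129 and 128 CPM in ICM_E6 sums (-1.75 ± 0.47, adjusted p = 0.039 by edgeR). Its call did not survive leaving out any of P8, P9, P14 or P15, though the estimate stayed between -1.87 and -1.67.

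Along the epiblast and into the ectoderm, the members drifted down and then up without passing the test. In Epiblast_E8 against Epiblast_E7, 68 of 73 estimates were negative with a median of -0.54, and edgeR called 0. Of the members, 13 had an unadjusted p under 0.05 and DESeq2 called 3. Of all 23045 genes tested, 2917 had such a p and DESeq2 called 884, while edgeR called 0.434% higher and 0.161% lower. Against that drift COX6B2 had 75.7 and 67.3 CPM in Epiblast_E8 sums, against 4.28 and 9.01 CPM in Epiblast_E7 sums, without overlap but at an adjusted p of 0.0956 by edgeR. In Ectoderm_E11 against Epiblast_E10, 63 of 73 estimates were positive with a median of 0.56, and edgeR called 0. Of the members, 26 had an unadjusted p under 0.05 and DESeq2 called 13, all higher. Over all genes, 1918 had such a p and DESeq2 called 365 (295 higher), while edgeR called 0.148% higher and 0.0174% lower. ATP5ME, a small membrane subunit of complex V, had 1006 and 906 CPM in Ectoderm_E11 sums, against 309 and 417 CPM in Epiblast_E10 sums. In Ectoderm_E14 against Ectoderm_E13, edgeR and DESeq2 called 0 members, and 1 had an unadjusted p under 0.05. Over all genes, 2120 had such a p and DESeq2 called 255, while edgeR called 0.0608% higher and 0.208% lower.

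In the trophectoderm, some members of complexes I, II, III and V were lower in later than in early cells, a count that rests on single libraries. In TE of day 12 to 14 against TE of day 6 to 8 (6 sums each), 2 of 73 genes were higher and 21 lower by edgeR, where 9.24% of all genes were higher and 5.3% lower. The median log2 fold change was -0.51 for the members and 0.06 for all genes. Lower were 10 of 30 complex I subunits, 3 of 8 assembly factors, 2 of 3 complex II genes, 2 of 5 complex III genes and 4 of 13 complex V genes. None of the 14 complex IV genes was lower by edgeR, and 1 was at an unadjusted p under 0.05 and 1 by DESeq2. Among the complex IV genes, the estimates were -0.01 for COX4I1 and -0.51 ± 0.21 for COX5A, which did not pass. Whether complex IV differs from the other complexes was not tested. Days were weighted equally, so the single sums of TE_E12 (library P10) and TE_E14 (P12) weigh as much as the 4 sums of TE_E13. The 6 late sums come from 5 libraries, since P10 also gave a TE_E13 sum, and P9 gave both a late and an early sum, so the sums are not fully independent as the fit assumes.

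The largest falls included assembly factors and accessory subunits of complex I. NDUFAF4, an assembly factor, ranged from 17.1 to 98.5 CPM in late TE sums, against 55.2 to 288 CPM in early TE sums (-1.86 ± 0.39, adjusted p = 0.00054 by edgeR), with overlap only at the TE_E7 sum of P9. Its call was lost without P12, at -1.12. NDUFS4, an accessory subunit next to the NADH-oxidising part, ranged from 193 to 383 CPM in late sums, against 203 to 689 CPM in early sums (-1.08 ± 0.22), a call kept without each of the 10 libraries. NDUFS4 overlaps LOC100515977 in the RefSeq annotation, so reads of the pair may not be separable. SDHB ranged from 249 to 509 CPM in late sums, against 162 to 898 CPM in early sums (-0.78 ± 0.23), a call lost without P8, P10 or P12, at -0.51, -0.62 and -0.74. In these genes the TE_E7 sum of P9, with 5 cells and a median of 5783 genes per cell, was the lowest of the early sums. ATP5MC1 was between 572 and 1519 CPM in late sums, against 803 to 1676 CPM in early sums (-0.94 ± 0.22), and passed without each of the 10 libraries.

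Both genes that rose in late TE stand outside the common course. NDUFAF7, a methyltransferase that acts in complex I assembly, ranged from 73.9 to 175 CPM in late sums, against 38.8 to 79.9 CPM in early sums (1.00 ± 0.34, adjusted p = 0.0386 by edgeR), and it overlaps PRKD3 in the RefSeq annotation of Sscrofa11.1, so reads of the pair may not be separable. Its call was lost in 9 of the alternatives tried, among them leaving out P3, P4, P8, P9, P12, P14 or P15. COX6B2 ranged from 0.46 to 14.4 CPM in late sums, against 0 to 2.98 CPM in early sums, where 3 of 6 sums had 0 counts, so its fitted fold is not a bound. Other lists moved too: 8 of 14 assembly genes of other complexes were lower, among them BCS1L of complex III (-1.625 ± 0.34) and ACAD9 of complex I (-1.60 ± 0.32). Of 15 tricarboxylic acid cycle genes, 5 were lower and 2 higher, and all 3 subunit genes of isocitrate dehydrogenase 3 were lower (IDH3A by -1.40 ± 0.28). Of 13 glycolysis genes, 4 were higher and 0 lower, including the glucose transporter SLC2A3 (3.63 ± 0.30) and LDHA, lactate dehydrogenase A (1.11 ± 0.31). Of the 13 mitochondrial genome genes 4 were lower.

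The 23 calls in the trophectoderm became 7 without P12, 12 without P8, 12 without P10, 14 without P15 and 44 without P9. Without P10 or P12 the late days that remain were averaged. Of all genes edgeR called 3351 with all libraries, 2171 without P12, 2259 without P8, 3604 without P10, 2901 without P15 and 3781 without P9. DESeq2 called 36 members, 33 of them lower, and 4554 of all genes, 2767 of them higher. The epithelial and trophectoderm markers GATA3, CDX2, TEAD4, KRT8, KRT18 and DAB2 added up to 1954 to 5583 CPM in late sums, against 4617 to 6068 CPM in early sums, while the mesoderm list added up to 418 to 915 CPM in late sums, against 2.6 to 18.2 CPM in early sums. HAND1, which trophectoderm also expresses, gave 392 to 877 CPM of the late value, and TBXT was at most 0.8 CPM. The trophectoderm list gave 1994 to 3850 CPM in mesoderm sums, inside the range of late TE. The part of these shifts in the result was not tested.

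**Figure D3:**
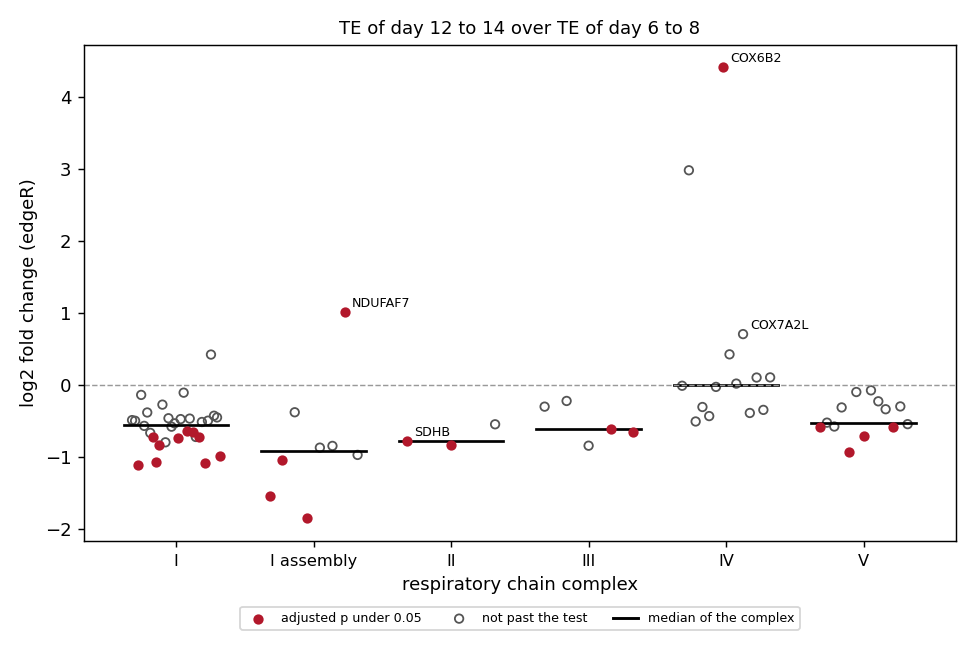
Log2 fold change from edgeR of each gene, by complex, for TE of day 12 to 14 over TE of day 6 to 8. Filled points passed an adjusted p of 0.05 and bars mark the median of a complex; passing genes below 0 occur in every class except complex IV, and COX6B2 and NDUFAF7 pass above 0.

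Between lineages taken from the same libraries, few members differed, and COX6B2 passed the test each time when all sums were used. In Hypoblast against Epiblast (7 and 6 sums from 6 libraries, library as a block), 2 genes were higher and 1 lower, where 11.1% of all genes were higher and 9.25% lower. In TE against ICM and Epiblast (9 and 8 sums from 7 libraries), 0 were higher and 1 lower of 72 tested, where 2.79% of all genes were higher and 2.56% lower. Days within a library differed in part: P15 set TE_E6 beside Epiblast_E10, P5 TE_E10 beside Epiblast_E8 and P9 TE_E13 beside Epiblast_E7. With sums of the same day and library only, edgeR called 0 members there, and 682 of all genes. In Hypoblast against Epiblast, P5 also set Hypoblast_E10 beside Epiblast_E8. In Mesoderm against Ectoderm (6 sums each from 6 libraries), 0 were higher and 1 lower, where 1.86% of all genes were higher and 1.24% lower. The lower gene was COX6B2 in each case. These comparisons share epiblast sums in part, and whether the 3 differences are alike was not tested.

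COX6B2 was higher in the epiblast from day 8 on than in the hypoblast and trophectoderm sums. It had 1.25 to 6.71 CPM in the 7 hypoblast sums, against 52.7 to 72.0 CPM in the epiblast sums of day 8 to 10 and 4.07 and 8.56 CPM in those of day 7 (-3.575 ± 0.44, adjusted p = 3.44e-05 by edgeR). Only the day 7 epiblast sums come near the hypoblast range, and the one at 4.07 CPM lies inside it. In TE and preTE sums it had 0 to 2.79 CPM, against 0.51 to 67.5 CPM in sums of inner cell mass and epiblast (-3.55 ± 0.86, adjusted p = 0.0223 by edgeR). That call was lost without P4, P5, P8, P9 or P15, with estimates of -3.42 to -3.17. It was also lost without the block and with sums of the same day and library only. Mesoderm sums had 10.7 to 54.9 CPM, against 36.0 to 93.0 CPM in ectoderm sums of the same libraries (-1.395 ± 0.27, adjusted p = 0.0178 by edgeR), and mesoderm was lower in each of the 6 library pairs. The mesoderm call was lost without P18, without P19 and without the block.

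Pooled over all cells of a group, COX6B2 stood at 69.5, 62.5 and 70.6 CPM in the epiblast of day 8, 9 and 10, at 47.9 to 86.4 CPM in ectoderm and at 96.4 and 74.3 CPM in pgEpiSC_high and pgEpiSC_low. In the hypoblast it stayed between 1.25 and 3.83 CPM. Its common partner COX6B1 was not analysed here, so no isoform share can be given. The other members that differed between hypoblast and epiblast, the isoform COX6A2 and the supercomplex factor COX7A2L, went the other way. COX6A2 had 60.3 to 126.5 CPM in hypoblast sums, against 29.0 to 76.55 CPM in epiblast sums (0.90 ± 0.23, adjusted p = 0.0115 by edgeR). COX7A2L had 170 to 248 CPM in hypoblast sums, against 91.35 to 165.5 CPM in epiblast sums (0.71 ± 0.18, adjusted p = 0.00985 by edgeR). COX7A2L did not overlap between the lineages, but its call was lost without P5, at 0.57, and that of COX6A2 without the block, at 0.73.

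**Figure D4:**
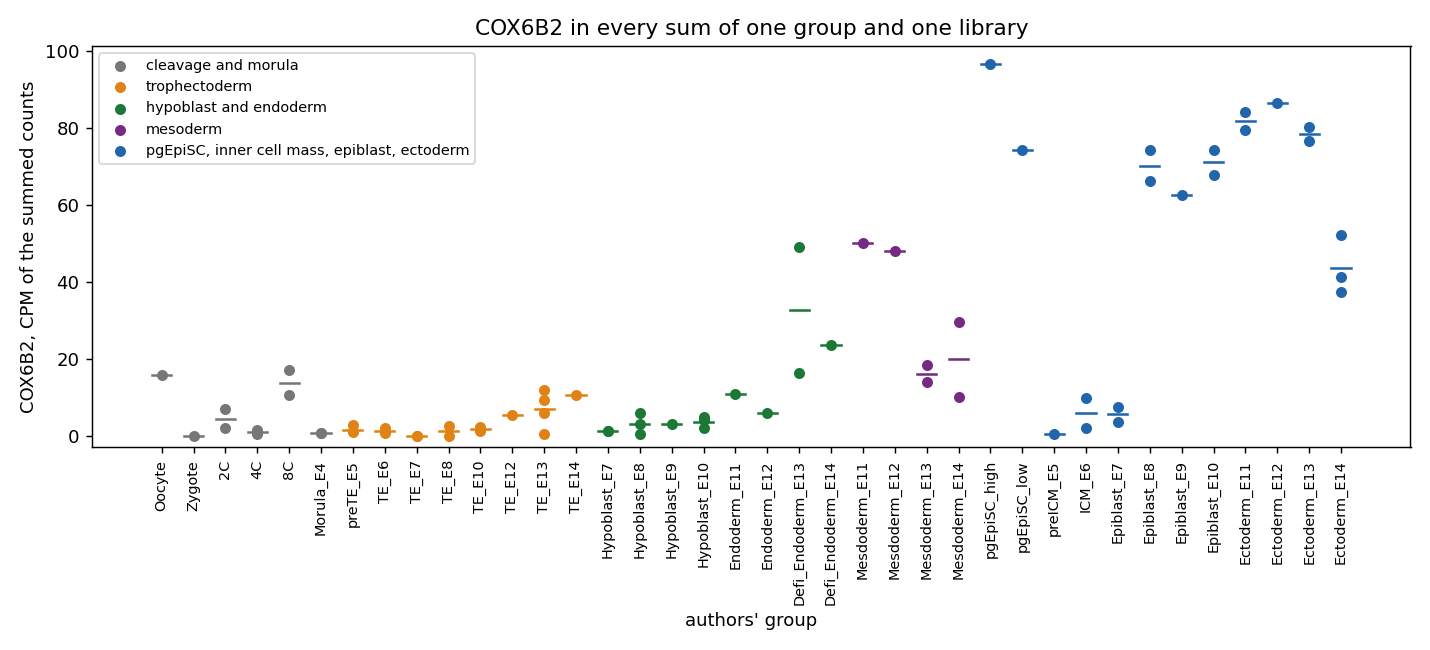
COX6B2 in CPM of the summed counts, one point for each sum of one group and one library, with a bar at the mean of a group's sums. Blue points from Epiblast_E8 to Ectoderm_E13 and both pgEpiSC libraries lie above 60 CPM, Ectoderm_E14 and mesoderm lie lower, trophectoderm and hypoblast stay under 15 CPM, and the 2 Defi_Endoderm_E13 sums are at 16.2 and 49.1 CPM.

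The remaining tissue isoforms of complex IV each had a course of their own. COX4I2, the isoform of subunit IV that adult lung expresses in other mammals, was at or below 0.31 CPM in every group up to Epiblast_E8 on the embryonic side and in the hypoblast, and reached 9.98 CPM in Epiblast_E10, 14.3 CPM in Ectoderm_E13 and 39.6 CPM in Mesdoderm_E14. In Mesdoderm_E14 it made up 5.46% of the counts of COX4I1 and COX4I2 together (exact binomial 95% interval 4.76 to 6.23%, counting error only), with 3.96 to 13.6% in its 3 libraries. COX7A1, the muscle isoform partner of COX7A2, made up 58.1% of the pair's counts in 8C cells (56.9 to 59.3%) and 17.6% in Morula_E4 (16.6 to 18.5%). The pair shifted with COX7A2, which had 598 and 768 CPM in morula sums, against 75.05 and 73.5 CPM in 8C sums (3.20 ± 0.37). NDUFA4L2, a hypoxia-inducible paralog of the complex IV subunit NDUFA4 in other mammals, was highest among columns of over 5 cells in Hypoblast_E9, with 46.4 CPM from 1 library. These shares are of counts, not of molecules per transcript length.

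Some genes of every complex except complex II were higher in the stem cell lines than in the E10 epiblast. In pgEpiSC against Epiblast_E10 (2 sums each, 189 and 97 cells), 31 of 73 genes were higher and 0 lower by edgeR, where 3.3% of all genes were higher and 3.23% lower. The libraries pgEpiSC_high and pgEpiSC_low, which carry different labels, served as the 2 sums of one group. This was a separate fit of 9 sums, in which the epiblast sums of other days also set the spread. The median log2 fold change was 0.51 for the members and 0.00 for all genes. Higher were 11 of 13 complex V genes, 8 of 14 of complex IV, 2 of 5 of complex III and 10 of 30 of complex I. No assembly factor and no complex II gene passed (of 11, 1 higher and 2 lower at an unadjusted p under 0.05, and 1 and 1 by DESeq2). By the deposited means the members' median deviation was 0.22 in Epiblast_E10, 0.26 in pgEpiSC_low and 0.33 in pgEpiSC_high. For complex I it was 0.26, 0.14 and 0.32 in these columns, and for complex V -0.01, 0.49 and 0.47. Epiblast_E7 lay at 0.68 over all members. Ectoderm_E11 was also above the same Epiblast_E10 sums, with an edgeR median of 0.56 in the fit of 65 embryonic sums, where 0 members passed. The 2 fits set their spread from different sums, so counts of calls cannot be compared between them.

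The members with the largest rise were mostly small membrane and accessory subunits. ATP5ME had 899 and 1005 CPM in the pgEpiSC_high and pgEpiSC_low libraries, against 299 and 401 CPM in the Epiblast_E10 sums (1.44 ± 0.15, adjusted p = 0.000167 by edgeR). ATP5MD, a small subunit also named ATP5MK, had 778 and 974 CPM in pgEpiSC libraries, against 294 and 399 CPM in Epiblast_E10 sums (1.34 ± 0.17). COX7A2 changed by 1.06 ± 0.16 and COX7C, another single-helix subunit of complex IV, by 0.98 ± 0.15. NDUFB4, an accessory membrane subunit of complex I, had 528 and 611 CPM in pgEpiSC libraries, against 255 and 328 CPM in Epiblast_E10 sums, and UQCR10 of complex III had 597 and 673 CPM, against 287.5 and 385 CPM. All of these groups are apart.

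No core subunit of complex I passed the test. Of the 6 core subunits of complex I, 0 passed edgeR, 2 were higher at an unadjusted p under 0.05 and 2 by DESeq2, while 10 of 24 accessory subunits were higher. NDUFS1 had 132 and 112.5 CPM in pgEpiSC libraries, against 154 and 135 CPM in Epiblast_E10 sums (-0.24 ± 0.19), and NDUFV1 had 215 and 174 CPM, against 212 and 209 CPM (-0.11 ± 0.21). SDHB changed by 0.24 ± 0.14 and UQCRC1 by 0.40 ± 0.15, neither past the threshold. In complexes IV and V the larger subunits COX4I1 (0.67 ± 0.12), COX5A (0.575 ± 0.135) and ATP5F1A (0.60 ± 0.13) were higher, as were 4 of 4 common isoforms of complex IV and 2 of 3 F1 subunits of complex V. The difference between core and accessory subunits was not tested. Tissue isoforms of complex IV did not pass, including COX6B2 with 96.6 and 81.05 CPM in pgEpiSC libraries, against 58.3 and 67.15 CPM in Epiblast_E10 sums.

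Beside these, 5 of 13 glycolysis genes were higher, from GAPDH (0.70 ± 0.13) to ENO1, enolase (1.52 ± 0.21), and 5 of 13 mitochondrial genome genes, all of them complex I subunits such as ND1 (0.92 ± 0.12). Of the tricarboxylic acid cycle list edgeR called 0 of 15. The count of members was 9 without P15 and 8 without pgEpiSC_low, and 27 to 29 without the other library of each side. Of all genes edgeR called 1092 with all 4 libraries, 284 without P15, 263 without pgEpiSC_low, 552 without P16 and 707 without pgEpiSC_high. The median number of genes per cell was 8336 and 9146.5 in the pgEpiSC libraries, against 9854 and 10698.5 in the Epiblast_E10 sums, without overlap, and its part in the result was not tested. Culture, library and line cannot be told apart in this comparison, because all stem cells come from libraries of their own.

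**Figure D5:**
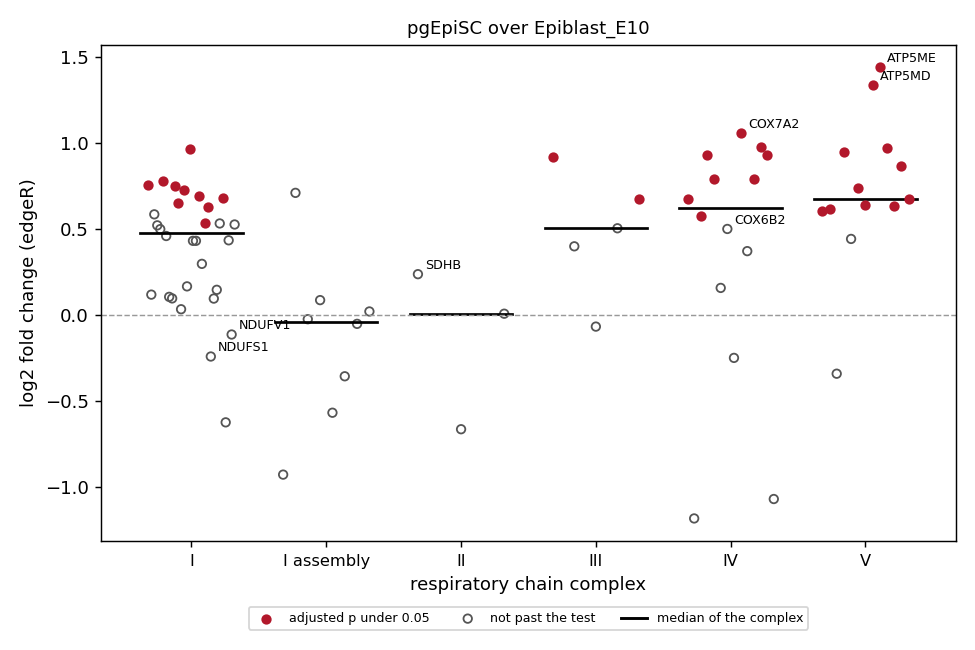
Log2 fold change from edgeR of each gene, by complex, for pgEpiSC over Epiblast_E10. Filled points passed an adjusted p of 0.05 and bars mark the median of a complex; 31 genes pass, all above 0, led by ATP5ME and ATP5MD in complex V, and none passes among assembly factors and complex II.

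The 2 stem cell libraries were close to each other, with 1 library a group and therefore no test. The log2 ratio of pgEpiSC_high to pgEpiSC_low, with 1 CPM added, had a median of -0.03 over the 73 genes, with 34 above 0 and 39 below. No member differed by 2-fold in either direction. In the whole table, 4.02% of genes were at least 2-fold higher and 2.49% at least 2-fold lower, with a median of 0.07. By class the median was 0.24 for complex I assembly factors, 0.18 for complex II, 0.05 for complex III, 0.02 for complex I, -0.16 for complex V and -0.16 for complex IV. The deposited means of the 2 columns gave a median difference of 0.12 on their own log2 scale.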

How the data were processed

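Single cells of 20 embryo and 2 stem cell libraries were used. The authors deposited raw counts of reads per gene and cell, and group means and SDs. The deposited means are on a log2 scale, and each tallied with the mean of log2(CPM/10 + 1) over a set of cells. The deposited SDs, also log2, served only to check that match. The submitters' processing notes name STAR 2.7.1a, featureCounts 1.6.4, UMI-tools and Sscrofa11.1. No source used here states whether counting used strand. The authors' grouping of the 1647 cells was recovered by least squares: at least 97.94% of the means and 99.9% of the SDs of each group were within 0.001.

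Counts were summed by group and library where a sum held 5 or more cells (for the stages Zygote, 2C and 4C, 2 or more; for Oocyte, 1), of all pig genes without the 92 spike-ins (1.8% of counts). They were tested with edgeR 4.0.16 in R 4.3.3 (quasi-likelihood, TMM, filterByExpr, Benjamini-Hochberg over all genes tested, threshold 0.05). Stage steps and the late against early TE contrast came from one fit of 65 embryonic sums with a coefficient per group and no library term. Fits of their own served Hypoblast against Epiblast (13 sums), TE against ICM and Epiblast (17), Mesoderm against Ectoderm (12) and pgEpiSC against Epiblast_E10 (9). The SE was taken as the absolute log2 fold change divided by the square root of the F statistic, since the test itself gives none. It is approximate, above all at low counts. CPM of a comparison are TMM-scaled, those of pooled groups and marker sums are not. DESeq2 1.42.0, no filter, other size factors, library blocks and leaving out each library were alternatives, and common dispersion and same-day sums were added after seeing the data. The tests were checked on simulated counts. Intervals and limits of counts cover counting error only.

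The members and gene lists were chosen with earlier results of these data known, the members by a rule on names that used no measured value. Named genes were in each direction the 4 called members whose change was largest, given 20 CPM or more on the higher side, fixed catalytic members and isoform pairs, and other members as examples of a class, chosen after their values were seen. For 4C and 2C, which share libraries P1 and P13, the deviations of the P1 sums from the group means correlated at 0.22 over 23045 genes. A planned search of promoter motifs was not run.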

Additional observations from a re-analysis of the deposited data

Results flagged for a closer look

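One value stood apart among 32 ends of groups examined, where chance flags about 5% of groups. ATP5MC1, a c subunit gene of complex V, had 802.9 CPM in the TE_E7 sum of library P9, the lowest of the 6 early trophectoderm sums, with the nearest at 1402 CPM and the highest at 1676 CPM. That sum holds 5 cells.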

How the results depend on the processing

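Of the single-gene values, 548 kept direction and side of the threshold over the alternatives, 93 kept direction but lost the threshold and 3 reversed. The reversed ones were NDUFAF6 in 4C against 2C (-1.85 without P1, 3.40 without P13) and UQCRFS1 in 4C against 2C (-0.24 without P1, 2.0 without P13) and in 8C against 4C (0.023 without P1, -1.63 without P13). Leaving out each library gave 0 to 31 members called for 4C against 2C, 14 to 33 for 8C against 4C, 50 to 56 for Morula_E4 against 8C, 0 in every case for Epiblast_E7 against ICM_E6, 7 to 44 for late against early TE, 2 to 4 for Hypoblast against Epiblast, 0 to 1 for TE against ICM and Epiblast, 0 to 2 for Mesoderm against Ectoderm and 8 to 29 for pgEpiSC against Epiblast_E10. With the library as a replicate block, in a fit of the 2C and 4C sums only, 0 were called for 4C against 2C. Without the block, 0 were called for TE against ICM and Epiblast and 0 for Mesoderm against Ectoderm. For 4C against 2C the set of sums changed along with the block, so the 2 cannot be told apart. DESeq2 called 1 in preTE_E5 against Morula_E4, 3 in Epiblast_E8 against Epiblast_E7, 13 in Ectoderm_E11 against Epiblast_E10, 36 in late against early TE, 5 in Hypoblast against Epiblast and 3 in Mesoderm against Ectoderm. Its size factors in edgeR gave 1, 1 and 5 for the epiblast, ectoderm and hypoblast comparisons just named. With no filter on low counts, the counts were 0 for Epiblast_E7 against ICM_E6, 2 for Epiblast_E8 against Epiblast_E7, 2 for Ectoderm_E11 against Epiblast_E10, 6 for Hypoblast against Epiblast and 3 for Mesoderm against Ectoderm. A common dispersion gave 5 for Hypoblast against Epiblast and 2 for Mesoderm against Ectoderm, and sums of the same day and library 7 for Hypoblast against Epiblast and 0 for TE against ICM and Epiblast. From pooled counts, the median rise of Morula_E4 over 8C was 3.42 for complex I, 2.996 for its assembly factors and 1.41 for complex IV. By the deposited means it was 1.599 for complex IV genes averaging at least 1. The deposited means gave 0.12 for pgEpiSC_high against pgEpiSC_low. The causes were not tested. Where leaving out a library left 1 sum in a group, that sum was assumed to vary like those of the other groups in the fit. Without P10 or P12, late TE was the mean of the days that remain, a choice made after seeing the data. DESeq2 size factors moved the median of all genes for Morula_E4 against 8C to -0.47, with the members at 1.75. Sums of few cells (2C, 4C, TE_E7) limit the precision.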
